A study of Mus musculus with 6 samples.

Results

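The lysosomal cathepsins are the proteases that break down protein inside lysosomes, the acidic compartments in which cells digest what they take up and what autophagy delivers. The 10 cathepsin genes described here were chosen by name and not by their values. They are the cysteine proteases Ctsb, Ctsc, Ctsf, Ctsh, Ctsk, Ctsl, Ctss and Ctsz, the aspartic protease Ctsd and the serine carboxypeptidase Ctsa. All 10 were measured, among 18193 genes on the array, by 22 probe sets that name 1 of them alone. The value of a gene is that of its probe set with the highest mean over all arrays, and the other 12 probe sets are described as well.

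The data are 6 single-colour 3' expression arrays of RNA from mouse bone marrow cells sorted as Flt3-, Lin-, Sca1+ and cKit+, a population enriched for stem and progenitor cells. The Raptor mutant group (3 arrays) came from mice that carried the MxCre transgene and a Raptor gene floxed at exon 6 on both alleles. The wild type group (3 arrays) had the same floxed alleles and no MxCre, so wild type here means floxed without recombinase. Every mouse was on the c57bl/6 background and had received pIpC, a double-stranded RNA that induces interferon, at 15 µg per g in 3 doses over 5 days. Sorting followed 5 weeks later, and the labels give no ages. The Mx promoter responds to interferon in many tissues, so deletion is not limited to the sorted cells. Whether an array stands for 1 mouse or several is not stated. P-values therefore reflect array-to-array spread alone, part of which may be technical. The series asks which genes differ in expression when Raptor, a component of mTORC1, is lost.

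Cathepsins are made as inactive precursors, tagged with mannose 6-phosphate in the Golgi, carried to the lysosome and activated there by acid and by other proteases. Cystatins and related proteins hold them in check outside the lysosome. The kinase complex mTORC1 sits on the lysosome when amino acids are plentiful and, in cultured cells, keeps the transcription factors TFEB and TFE3 out of the nucleus. These factors bind a DNA element called CLEAR in the promoters of many lysosomal genes, with TCACGTGA at its core. In antigen-presenting cells cathepsin S trims the invariant chain, the product of Cd74, from MHC class II molecules.

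Promoter sequences of 8 of the 10 genes were taken from RefSeq (GRCm38.p6), as windows from 250 bases before to 50 bases after an annotated start. The 3 windows below are shown because they hold the pairs or single copies of TCACGTGA, or the interferon-type element, described next. Capitals mark CACGTG and TCACGTGA in Ctsa and Ctsd, and in Ctss they mark GAAA repeated after any 2 bases, and then the reverse complement of GAGGAAGT. Each is written 5' to 3' on the strand of the gene.
Ctsd, chr7:142387778-142388077, minus strand: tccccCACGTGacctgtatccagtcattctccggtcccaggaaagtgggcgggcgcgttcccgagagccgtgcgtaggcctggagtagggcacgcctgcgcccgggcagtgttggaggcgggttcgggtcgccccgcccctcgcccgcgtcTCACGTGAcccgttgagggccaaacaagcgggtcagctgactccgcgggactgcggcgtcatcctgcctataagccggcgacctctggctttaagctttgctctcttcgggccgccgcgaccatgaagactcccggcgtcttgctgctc
Ctsa, chr2:164833523-164833822, plus strand: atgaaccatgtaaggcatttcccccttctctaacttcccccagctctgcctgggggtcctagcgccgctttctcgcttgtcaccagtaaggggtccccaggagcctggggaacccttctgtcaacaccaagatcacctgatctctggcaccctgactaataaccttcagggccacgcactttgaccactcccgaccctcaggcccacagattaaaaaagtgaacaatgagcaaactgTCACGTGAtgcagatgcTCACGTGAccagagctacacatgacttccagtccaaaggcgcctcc
Ctss, chr3:95526536-95526835, plus strand: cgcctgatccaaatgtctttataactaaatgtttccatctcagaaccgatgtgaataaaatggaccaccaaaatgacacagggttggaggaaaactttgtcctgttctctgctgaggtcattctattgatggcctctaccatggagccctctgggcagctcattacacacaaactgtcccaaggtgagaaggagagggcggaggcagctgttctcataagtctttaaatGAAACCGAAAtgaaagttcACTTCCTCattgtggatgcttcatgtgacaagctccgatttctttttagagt

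Both strands of all windows were searched for 5 motifs, which were chosen with these sequences in view. The E-box CACGTG lay in windows of 4 members, Ctsa, Ctsd, Ctsf and Ctsl, and in 7.15% of all 32851 promoter windows. The longer TCACGTGA, which contains CACGTG, lay in windows of 2 members, Ctsa and Ctsd, and in 0.974% of all windows. In the Ctsa window shown it stood on each side of the start, from 13 bases before it and again from base 5 after it. More than 1 copy is held by 0.0578% of all windows. Another Ctsa window, at a different annotated start, held 0 copies of each motif. In Ctsd a copy began 99 bases before the start, and a separate CACGTG began 245 bases before it. The full CLEAR consensus, TCACGTGA with G before it and C after it, was in none of the 9 windows of these genes and in 0.326% of all windows. GAAA repeated after any 2 bases, the core of the interferon-stimulated response element, was in the Ctss window from 21 bases before the start, and in 3.44% of all windows. GAGGAAGT, the core site of the myeloid factor PU.1, was found in Ctsc and Ctss and in 3.20% of all windows. A match is a description of these letters and not a measured binding site.

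Arrays differed in ways that genotype does not define. Y-linked Eif2s3y and Kdm5d lay between 3.60 and 4.53 on the log2 scale on the 3 mutant arrays and wild type array 1, and between 9.53 and 10.81 on wild type arrays 2 and 3. Xist ran the other way, at 13.37 to 13.46 on the mutant arrays and wild type array 1, and at 8.05 and 5.69 on wild type arrays 2 and 3. This split was not balanced between the groups. Only wild type array 1 is thus available as a wild type array without Y-linked signal. Differences from it alone are given below for the 10 cathepsin genes. For all other genes the differences are from the 3 wild type arrays together. Y-linked signal was not set apart in those values. The brightest of 3 Rptor probe sets averaged 8.33 ± 0.35 in mutant and 8.11 ± 0.49 in wild type arrays (SD, n = 3 each). The position of its probes relative to the floxed exon was not used here, so this value does not check the deletion. Among markers of the sorted population, Kit lay between 10.71 and 10.94 on mutant arrays and between 10.72 and 11.17 on wild type arrays. In 5 of 10 stem cell markers every mutant array lay below every wild type array (7.98% of all genes). These were Mecom, Hlf, Procr, Hoxa9 and Meis1, with log2 fold changes of -1.0 to -0.59. The groups overlapped for the other stem cell markers measured. Flt3, absent from the gated cells by name, gave 9.64 to 10.18 on mutant and 9.51 to 10.79 on wild type arrays, above array medians of 6.85 to 6.94. Of 18193 genes, 20 (0.110%) were called changed at an adjusted p under 0.05 (limma, Benjamini-Hochberg), 10 in each direction (0.0550% each). Gene values below are log2 intensities, differences are mutant minus wild type on that scale, and SE is that of limma.

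None of the 10 cathepsin genes was called changed, against the 0.110% of all genes called, and their adjusted p ran from 0.16 for Ctsb to 0.90 for Ctsf. At an unadjusted p under 0.05, limma found 5 of the 10 higher in the mutant (Ctsb, Ctsd, Ctsl, Ctss and Ctsz) and 0 lower, against 5.81% of all genes higher and 4.24% lower. In the same 5 genes every mutant array lay above every wild type array, as in 8.08% of all genes, and in no member did every mutant array lie below, as in 7.98% of all genes. The log2 fold change was above 0 in 9 of the 10 and in 40.4% of all genes. The median log2 fold change was 0.62 over the 10 members and -0.07 over all genes. Brighter genes as a whole sat higher in the mutant. Among the upper 50% of genes by mean signal, which hold 8 of the 10 members, 58.5% had a log2 fold change above 0 and 13.4% had every mutant array above every wild type array.

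Leaving out the wild type arrays with Y-linked signal changed which members passed. Against wild type array 1 alone, 5 of the 10 were higher at an unadjusted p under 0.05 in limma (Ctsb, Ctsd, Ctsf, Ctsl and Ctss), where 4.94% of all genes were. With Y-linked signal as a covariate 3 were (Ctsb, Ctsd and Ctss), against 3.28% of all genes. The median over the members was 0.60 and 0.65 in these fits, and 0 were called in each. Single differences from wild type array 1 were 0.67 for Ctsb, 0.60 for Ctsl, 0.42 for Ctsz, 0.61 for Ctsa, 0.13 for Ctsc and 0.14 for Ctsh. Where the groups do not overlap, leaving out arrays cannot turn the sign.

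**Figure D1:**
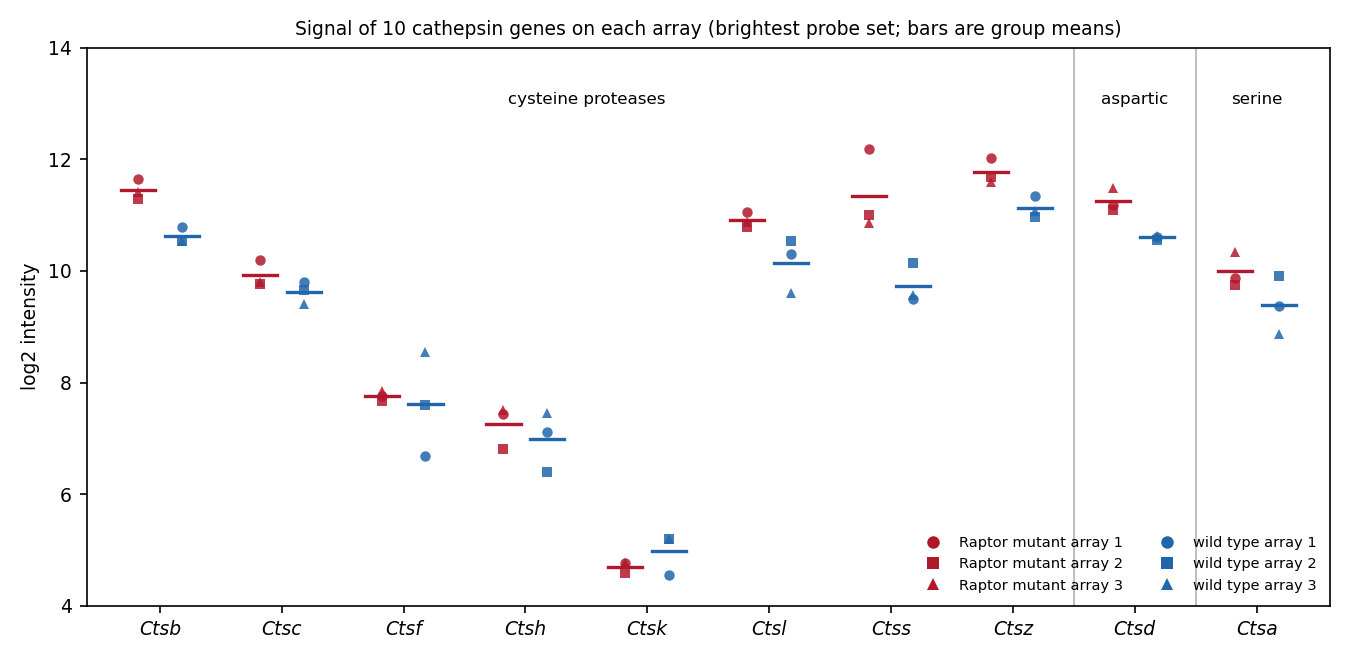
Log2 intensity (vertical axis) of the 10 cathepsin genes on each of 3 Raptor mutant and 3 wild type arrays, brightest probe set of each gene, with points for arrays and bars for group means. The groups do not overlap for Ctsb, Ctsl, Ctss, Ctsz and Ctsd, and Ctsk lies between 4.55 and 5.19 on all 6 arrays. Heights compare arrays within a gene and not one gene with another.

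Ctss, cathepsin S, showed the widest difference between the groups of the 10 genes. It stood at 12.19, 11.00 and 10.85 on mutant arrays 1, 2 and 3, and at 9.49, 10.14 and 9.57 on wild type arrays 1, 2 and 3. The lowest mutant array was 0.71 above the highest wild type array, and mutant array 1 stood apart from its own group. This is a log2 fold change of 1.61 ± 0.37 (SE), or 3.06-fold (limma adjusted p = 0.19). Without mutant array 1 it was 1.19 ± 0.26, and against wild type array 1 alone it was 1.86. Ctsk, cathepsin K, the collagen-degrading protease of osteoclasts, lies near it on chromosome 3, with 1 annotated gene between them. Ctsk had 4.76, 4.58 and 4.77 on mutant arrays and 4.55, 5.19 and 5.19 on wild type arrays. All of these lie below or near the lower quartiles of the arrays (5.15 to 5.37), the groups overlap, and the log2 fold change was -0.27 (95% interval -0.77 to 0.22). Against wild type array 1 alone the Ctsk difference was 0.16, and without that array it was -0.49.

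Ctsb, cathepsin B, which cleaves both inside chains and from their carboxyl end, had the smallest p of the members. Its brightest probe set read 11.65, 11.29 and 11.42 on mutant arrays, and the wild type arrays read 10.79, 10.53 and 10.54. The spread within each group was small beside the gap of 0.50 between them. This is a log2 fold change of 0.83 ± 0.17 (SE), or 1.78-fold (limma adjusted p = 0.16). Of the 5 Ctsb probe sets, 4 cite the same sequence record, yet they did not read alike. The second and the third in brightness had log2 fold changes of 0.94 ± 0.20 and 1.32 ± 0.34 with groups apart. The fourth, from the same record, had -0.29 ± 0.33 with groups overlapping, and the dimmest, from another record, had -0.24 ± 0.20. With all 5 averaged the log2 fold change was 0.51.

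Ctsl, cathepsin L, a broad endopeptidase of the lysosome, read 11.06, 10.78 and 10.87 on mutant arrays and 10.30, 10.54 and 9.60 on wild type arrays. The mutant arrays were close together, and wild type array 3 was the low one. This is a log2 fold change of 0.76 ± 0.25 (SE, limma adjusted p = 0.39). Without wild type array 3 it was 0.49 ± 0.17. A dim second probe set, with a mean of 6.06, had -0.32 ± 0.24, and the mean of both gave 0.22 ± 0.20. Ctsz, cathepsin Z, a carboxypeptidase, read 12.03, 11.68 and 11.59 on mutant arrays and 11.35, 10.96 and 11.08 on wild type arrays. Groups did not overlap at any of the 3 Ctsz probe sets, whose log2 fold changes were 0.63 ± 0.19, 0.73 ± 0.26 and 0.75 ± 0.21. The brightest had a limma adjusted p of 0.32. These 3 probe sets cover the same gene and are not separate measurements of the mice.

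Ctsd, cathepsin D, the main aspartic protease of lysosomes, read 11.19, 11.09 and 11.48 on mutant arrays and 10.61, 10.56 and 10.62 on wild type arrays. Its wild type arrays lay within 0.06 of one another, and the mutant arrays began 0.48 above them. From the only Ctsd probe set, the log2 fold change was 0.66 ± 0.16 (SE), or 1.58-fold (limma adjusted p = 0.24). Against wild type array 1 alone it was 0.64. Ctsa, cathepsin A, also called protective protein because it stabilises the lysosomal enzymes of Glb1 and Neu1, read 9.88, 9.75 and 10.34 on mutant arrays. On wild type arrays Ctsa read 9.38, 9.91 and 8.87. Wild type array 2 lay above 2 of the mutant arrays, so the groups overlap. Its log2 fold change was 0.60 (95% interval -0.07 to 1.27), and a dim second probe set had -0.20 ± 0.32. It was 0.34 without wild type array 3, 0.86 without wild type array 2 and 0.20 with both probe sets averaged.

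The remaining cysteine cathepsins had overlapping groups. Ctsc, cathepsin C, which activates the serine proteases of granules, read 10.20, 9.76 and 9.81 on mutant arrays and 9.80, 9.66 and 9.40 on wild type arrays. Only the margin of wild type array 1 over mutant array 2, of 0.04, made its groups overlap. The Ctsc log2 fold change was 0.30 (95% interval -0.14 to 0.75), and its other probe sets had 0.72 ± 0.70 and -0.19 ± 0.40. Without mutant array 1 it was 0.16, and without wild type array 3 it was 0.20. Ctsh, cathepsin H, an aminopeptidase, read 7.43, 6.81 and 7.51 on mutant arrays and 7.11, 6.40 and 7.45 on wild type arrays. Array 2 was the low one in each group, and the log2 fold change was 0.26 (95% interval -0.45 to 0.98). Without wild type array 2 it was -0.03 and without wild type array 3 it was 0.49, and the second Ctsh probe set had 0.02 ± 0.43. Ctsf, cathepsin F, read 7.76, 7.66 and 7.84 on mutant arrays and 6.69, 7.60 and 8.54 on wild type arrays. The mutant values lay within the wild type range, and the log2 fold change was 0.14 (95% interval -0.81 to 1.09). For Ctsf the choice of wild type array sets the sign, with 1.06 against wild type array 1 alone and -0.32 without that array. The SD of Ctsf was 0.09 among mutant and 0.92 among wild type arrays. A dim second Ctsf probe set had -0.08 ± 0.18.

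**Figure D2:**
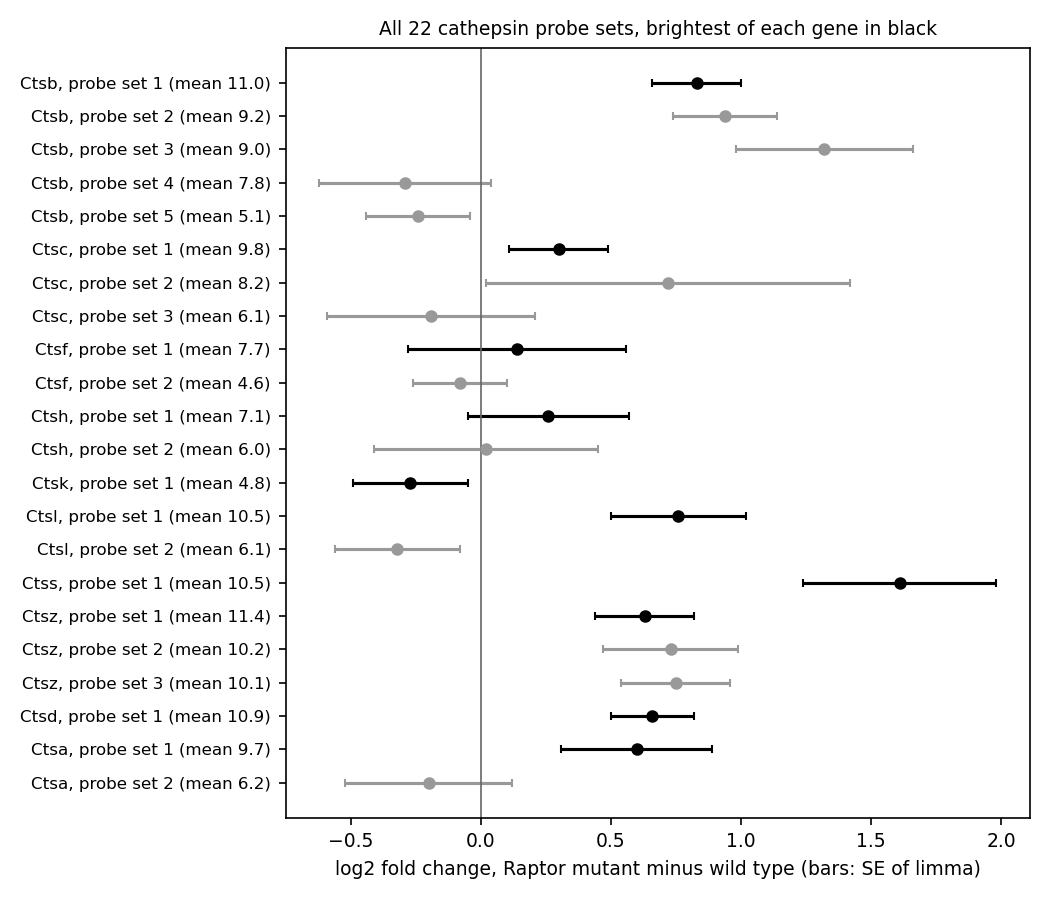
Log2 fold change (horizontal axis, mutant minus wild type, bars are SE) of all 22 cathepsin probe sets, with the brightest of each gene in black and the others in grey, and the mean log2 intensity in each label. The 6 grey probe sets left of 0 have means between 4.58 and 7.84, while those of Ctsz and the next 2 of Ctsb lie right of 0 with their brightest partner.

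The probe sets that were not the brightest split evenly. Of 12, 6 had a log2 fold change above 0 and 6 below, with a median of -0.03, and 4 had an unadjusted p under 0.05 in limma (2 each of Ctsb and Ctsz, all higher in the mutant). Those below 0 had mean log2 intensities of 4.58 to 7.84, and those above 0 had means of 5.99 to 10.25. With a gene's probe sets averaged, the median over the 10 members was 0.25 in place of 0.62. Whether the dimmer probe sets detect the transcripts at all was not tested, since no detection calls were used here.

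Across the arrays, the members were highest on mutant array 1. Each member's values were centred on its own mean and then averaged over the 10 genes, which gave 0.46, 0.08 and 0.29 on mutant arrays 1, 2 and 3, and -0.35, -0.21 and -0.27 on wild type arrays 1, 2 and 3. Mutant array 1 held the highest value of 5 members and mutant array 3 that of 3, whereas mutant array 2 held none. The median SD of a member was 0.218 among mutant and 0.363 among wild type arrays, and that of all genes was 0.158 among mutant and 0.286 among wild type arrays. The 5 genes outside the list whose centred values were closest to this mean profile over the 6 arrays were Cd2ap, Lgals1, Pltp, Hk1 and Carnmt1, at root mean square differences of 0.050 to 0.071. Closest to Ctss were Cd74, Rassf4, Slc24a3, Csrp3 and the class II gene H2-Aa, at 0.325 to 0.353. These are descriptions over 6 arrays, and none of the 10 genes was called changed.

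Of 13 other cathepsin genes measured, 0 were called, 2 had a log2 fold change above 0 (40.4% of all genes), and the median of the 13 was -0.13. Ctse, cathepsin E, an aspartic protease of endosomes, read 11.07, 11.45 and 11.70 on mutant arrays and 12.23, 12.26 and 11.96 on wild type arrays. Its groups did not overlap and its log2 fold change was -0.74 ± 0.20 (SE, limma adjusted p = 0.28), opposite in sign to that of the related Ctsd. Ctsw, of cytotoxic lymphocytes, and Ctsg, the neutrophil granule serine protease, had 0.47 ± 0.20 and 0.39 ± 0.18 with mutant arrays above wild type arrays. The placental cathepsins Cts3, Cts6, Cts7, Cts8, Ctsj, Ctsm, Ctsq and Ctsr lay between 3.35 and 5.61 on all arrays, with log2 fold changes of -0.26 to -0.02. Ctso had -0.22 ± 0.28, with overlapping groups.

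Among 10 genes for activation and partners of cathepsins, 0 were called, 6 were higher and 1 lower at an unadjusted p under 0.05 (5.81% and 4.24% of all genes), and the median log2 fold change was 0.68. Scpep1, a serine carboxypeptidase related to cathepsin A, read 8.99, 8.36 and 8.37 on mutant arrays and 7.62, 6.92 and 6.42 on wild type arrays. The groups were apart and the log2 fold change was 1.59 ± 0.32 (SE, limma adjusted p = 0.16). Lgmn, legumain, which processes cathepsin precursors, read 6.02, 5.58 and 5.33 on mutant arrays and 4.72, 4.90 and 4.87 on wild type arrays. The log2 fold change of Lgmn was 0.82 ± 0.21 (SE, limma adjusted p = 0.24), with wild type values below the lower quartile of the arrays. Cd74 had 1.90 ± 0.41, the aspartic protease gene Napsa 0.70 ± 0.26 and Psap, the precursor of the saposins, 0.66 ± 0.27, of which Psap had overlapping groups. The partners of cathepsin A differed in sign. Glb1, beta-galactosidase, had a log2 fold change of 0.70 ± 0.26 with groups apart, while Neu1, the lysosomal sialidase, read 7.38, 8.63 and 6.60 on mutant arrays and 8.36, 9.51 and 9.03 on wild type arrays. For Neu1 the log2 fold change was -1.43 ± 0.51 (SE, limma adjusted p = 0.42), and mutant array 2 lay above wild type array 1.

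Inhibitors showed no common direction. Of 17 measured among 21 listed, 0 were called. At an unadjusted p under 0.05, 1 was higher and 1 lower (5.81% and 4.24% of all genes). The median log2 fold change was -0.09. Cst7, cystatin F, which reaches the lysosome and inhibits cathepsins there, read 10.81, 10.49 and 10.49 on mutant arrays and 8.66, 9.50 and 9.84 on wild type arrays. Its groups were apart, with a log2 fold change of 1.26 ± 0.30 (SE, limma adjusted p = 0.22). Ctla2b, whose product resembles a cathepsin propeptide, read 11.02, 10.78 and 10.99 on mutant arrays and 11.51, 11.59 and 11.58 on wild type arrays, a log2 fold change of -0.63 ± 0.15 (SE, limma adjusted p = 0.22). Its paralog Ctla2a had -0.23 ± 0.15, and since the copies are similar in sequence their probe sets may share signal. Cystatins C (Cst3) and B (Cstb) had 0.23 ± 0.18 and 0.36 ± 0.23 with overlapping groups, and cystatin E/M (Cst6) had -0.50 ± 0.26.

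Of 12 genes that tag or carry lysosomal enzymes, 0 were called, and the median log2 fold change was 0.13. At an unadjusted p under 0.05, 0 were higher and 1 was lower (5.81% and 4.24% of all genes). That lower gene was Sort1, sortilin, a receptor that carries lysosomal proteins from the Golgi. It read 9.62, 9.42 and 9.26 on mutant arrays and 10.35, 10.69 and 10.77 on wild type arrays, a log2 fold change of -1.17 ± 0.18 (SE, limma adjusted p = 0.099). The mannose 6-phosphate receptor genes M6pr and Igf2r had 0.36 ± 0.19 and 0.25 ± 0.24, and Gnptab, which starts the tag, had 0.22 ± 0.18, all with overlapping groups. The endocytic receptor gene Lrp1 and Scarb2, which carries glucocerebrosidase, had 0.71 ± 0.33 and 0.42 ± 0.23, and the adaptor gene Gga2 had 0.50 ± 0.28, also with overlapping groups. Among the 4 genes for factors of the CLEAR element (median 0.02), Mitf read 8.46, 8.45 and 8.74 on mutant arrays and 8.23, 7.43 and 7.58 on wild type arrays. Its log2 fold change was 0.80 ± 0.24 (SE, limma adjusted p = 0.31). Tfeb, Tfe3 and Tfec had log2 fold changes of -0.10, 0.13 and -0.12 with overlapping groups. RNA levels do not measure where these factors lie in the cell.

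**Figure D3:**
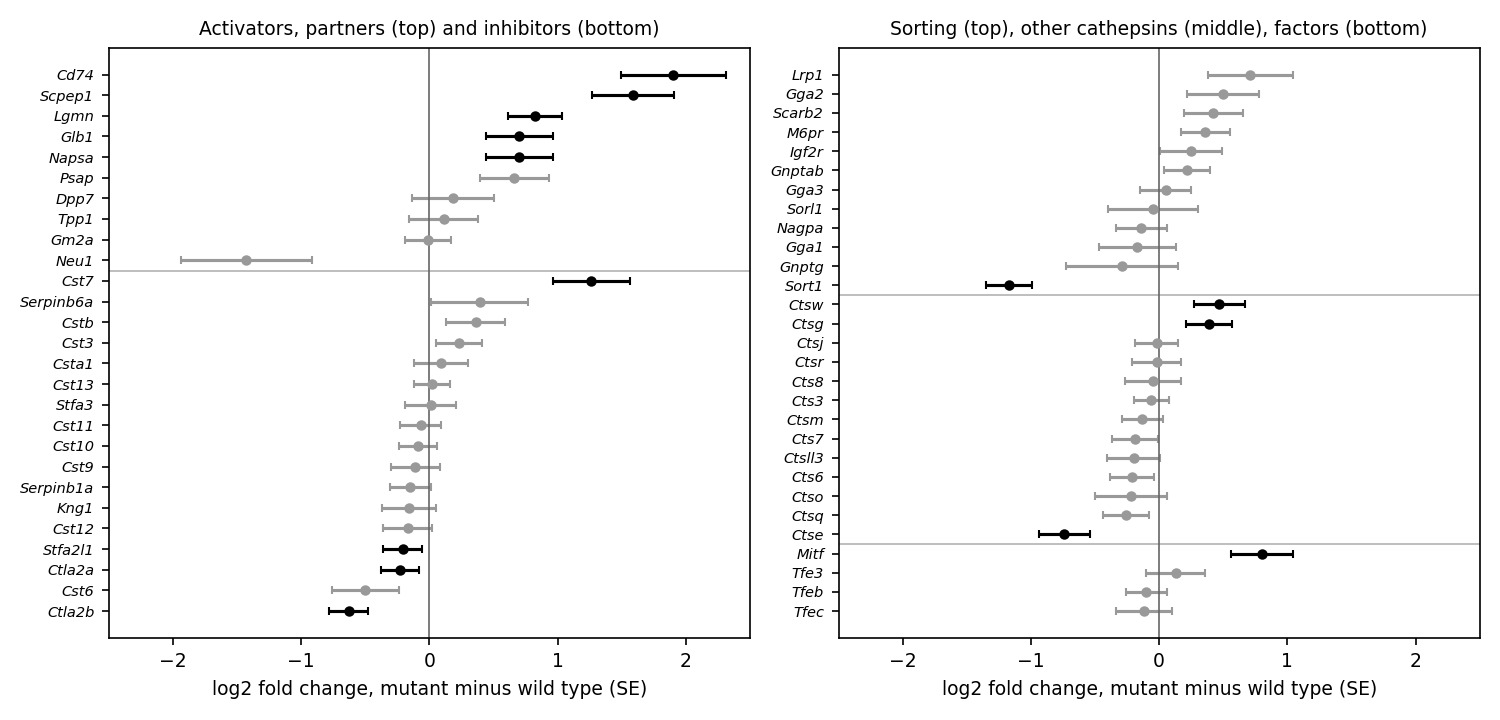
Log2 fold change (horizontal axis, mutant minus wild type, bars are SE) of genes for cathepsin activation and partners and for inhibitors (left), and for sorting, other cathepsins and CLEAR factors (right), black where the mutant and wild type arrays do not overlap and grey where they do. Scpep1, Cd74 and Cst7 lie furthest to the right and Neu1 and Sort1 furthest to the left, and none was called changed.

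Cathepsins are abundant in macrophages and dendritic cells, and RNA of sorted cells cannot tell more cells of a type from more RNA per cell. Markers of these cells followed the members in part. Of 20 markers, 0 were called, 8 were higher and 2 lower at an unadjusted p under 0.05 (5.81% and 4.24% of all genes), and 9 had every mutant array above every wild type array (8.08% of all genes). Their summed intensity ran from 10454 to 18834 on mutant arrays and from 8914 to 10187 on wild type arrays, and was highest on mutant array 1, where Ctss was also highest. Cd68, a lysosomal membrane glycoprotein, had a log2 fold change of 1.50 ± 0.21 (SE), C1qb had 2.57 ± 0.41 and Gpnmb had 3.32 ± 0.67. The related C1qc had 0.58 ± 0.28 with groups apart, and C1qa had 0.28 ± 0.28 with groups overlapping. The class II genes H2-Eb1 and H2-Ab1 had 1.55 ± 0.47 and 0.83 ± 0.32, and the receptor genes Mertk and Csf1r had 0.96 ± 0.36 and 1.39 ± 0.55. Other defining markers did not follow. Groups also overlapped for Cd14 (log2 fold change 0.40), Marco (0.39), Itgax (0.37), Mrc1 (0.22), Cx3cr1 (-0.01), Vcam1 (-0.04) and Fcgr1 (-0.23). Adgre1, the adhesion receptor that marks tissue macrophages, lay at 4.26 to 4.98 on mutant and 4.51 to 5.11 on wild type arrays, below the lower quartiles of the arrays. Itgam lay at 5.22 to 5.35 on mutant and 5.58 to 6.50 on wild type arrays, and Lyz2 had a log2 fold change of -0.65 ± 0.19. The part of such cells in the cathepsin values was not tested.

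**Figure D4:**
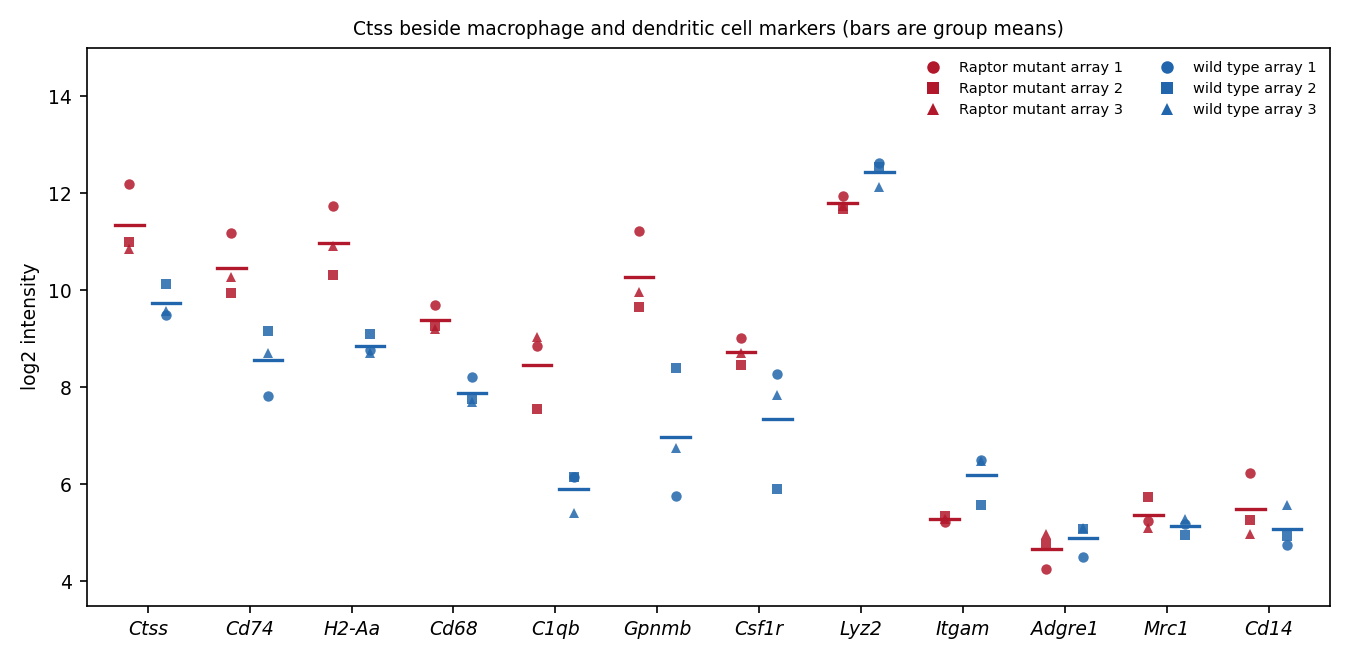
Log2 intensity (vertical axis) of Ctss and of 11 macrophage and dendritic cell genes on each Raptor mutant and wild type array, with points for arrays and bars for group means. Mutant array 1 has the highest Ctss, Cd74, H2-Aa, Cd68 and Gpnmb, while Adgre1 and Mrc1 stay near the lower end on all 6 arrays. The genes were picked after their values were seen, to show both kinds.

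Sums of other marker lists differed as well. In these sums, and in that of the macrophage and dendritic cell markers, the brightest genes weigh most. Gata2, at 12.01 to 12.33 on all arrays, enters both the mast cell and the stem cell sums. Mast cell and basophil markers (10 measured) summed to 9212 to 12927 on mutant arrays and 6355 to 7797 on wild type arrays. Of these, 4 (Ms4a2, Fcer1a, Cma1 and Mcpt8) had groups apart and higher in the mutant, against 8.08% of all genes. Groups overlapped for Cpa3 (log2 fold change 0.77), Hdc (0.76), Gata2 (0.02), Mcpt4 (0.01), Tpsab1 (-0.19) and Tpsb2 (-0.06). Neutrophil markers (10 measured) summed to 12834 to 16072 on mutant and 27894 to 36154 on wild type arrays, with Camp called lower in the mutant (-3.81 ± 0.42, limma adjusted p = 0.030). Groups were apart and lower in the mutant for 7 of the 10, against 7.98% of all genes. They overlapped for Mmp8 (-0.62), Mpo (0.16) and Prtn3 (0.19). Stem cell markers (10 measured) summed to 16949 to 18723 on mutant and 21582 to 25500 on wild type arrays, and megakaryocyte markers (5 measured) to 1817 to 2806 on mutant and 4316 to 5006 on wild type arrays. Sums of B cell, T and NK cell and erythroid markers overlapped between the groups. Their part in the cathepsin values was not tested.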

How the data were processed

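Per the submitters' processing notes, the authors used RMA, which corrects background, normalizes across arrays and summarises probes; its settings are not stated. Their deposited intensity values are linear (7.6 to 33795), so log2 was taken first. Probe sets were named from the platform's annotation table. Of 45101 probe sets, 34945 named 1 gene and were used, the brightest for each of 18193 genes. Dim genes were kept.

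The test was limma 3.58.1 (lmFit and eBayes, R 4.3.3), mutant minus wild type, 3 arrays each, no covariate, two-sided, with Benjamini-Hochberg adjustment over all genes and a threshold of 0.05. Other probe sets were read from a fit with every probe set as a row. Arrays give no read depth, and their number limits the precision. On simulated data for this comparison over 18193 genes, the procedure called 27 of 75 genes changed 2-fold and 57 of 75 changed 4-fold, with 7 unchanged genes called. The simulated noise was normal and independent between genes and arrays, with the same SD for a gene in both groups. It held no split by Y-linked signal, so these rates need not hold for the real arrays. Members, lists and alternatives were chosen with earlier results of these data known. Named are every member and, in each pathway list, at least the 4 genes with the smallest p and any with an unadjusted p under 0.05. Further pathway genes and the cell type markers named were chosen after their values were seen. List genes are counted, with no list test. Alternatives covered normalization, the choice of probe set, filters, the variance model, Y-linked signal and each array left out in turn.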

Additional observations from a re-analysis of the deposited data

How the results depend on the processing

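Under 17 other settings and at an adjusted p under 0.10, 0 of the 10 cathepsin genes were called, and the median over them stayed above 0. Their median log2 fold change was 0.25 when probe sets of a gene were averaged. Leaving out each array in turn, it ran from 0.49 (without mutant array 3) to 0.70 (without mutant array 2). The count of genes called over the whole array, 20, was 10 with the replicate number as a block, 6 after quantile normalization again, 40 with trend and robust fitting, 8 with array weights, 11 with log2(value + 16) and 49 at an adjusted p under 0.10. It was 0 with the Y-linked covariate (1149 at an unadjusted p under 0.05), and 0 with wild type arrays 2 and 3 left out (1729). In those fits the median over the members was 0.65 and 0.60, and the lone wild type array is assumed to vary like the mutant arrays. Leaving out each array in turn, the count ran from 5 (without wild type array 3) to 31 (without wild type array 1), with 10 and 9 without mutant arrays 1 and 3. The replicate block changed no call among the members, and deviations of same-numbered arrays correlated at 0.184, -0.026 and 0.063 over genes, so only the arrays numbered 1 passed 0.1 and the numbers were not taken to pair the arrays.

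Of 179 values of single members under alternatives, 10 changed sign and 0 were called. Ctsk was 0.12 with the Y-linked covariate and 0.16 with wild type arrays 2 and 3 left out, Ctsf was -0.32 without wild type array 1, and Ctsh was -0.03 without wild type array 2. Leaving out 1 array at a time, the highest values were 0.61 for Ctsf and 0.49 for Ctsh, each without wild type array 3. Other probe sets gave -0.20 for Ctsa, -0.29 and -0.24 for Ctsb, -0.19 for Ctsc, -0.08 for Ctsf and -0.32 for Ctsl. The cause was not tested. Apart from single other probe sets, Ctss ran from 1.19 to 1.86 over the alternatives, Ctsb from 0.51 to 0.92, Ctsd from 0.55 to 0.74, Ctsl from 0.22 to 0.95 and Ctsz from 0.41 to 0.74. Ctsa ran from 0.20 to 0.86, Ctsc from 0.13 to 0.39, Ctsf from -0.32 to 1.06, Ctsh from -0.03 to 0.49 and Ctsk from -0.49 to 0.16. Leaving out the lower 25% of genes dropped Ctsk, and the lower 50% dropped Ctsh as well.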
